A study of Mus musculus with 15 samples.

Results

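Lysosome genes were followed in mouse fetal liver cells transformed by the leukemic fusion gene MLL-ENL, with and without the transcription factor genes Cebpa and Cebpb. The set held 47 genes, named by symbol for the known place of their products in the lysosome, out of 53379 genes in the deposited table, whose values are normalized read counts. All 47 had a row, and 46 reached at least 10 normalized reads in at least 3 of the 15 libraries and were tested. The 47 were 11 cathepsins and other proteases, 10 glycosidases, 7 lipid-handling proteins, 9 membrane proteins, progranulin, 6 genes of the vacuolar proton pump (V-ATPase) and 3 transcription factors of the MiT family. The member left out of the tests was Ctsk, the collagen-degrading cathepsin of osteoclasts, with 8.03, 8.12 and 5.09 normalized reads in the WTFL libraries of clone C1, at most 1.02 in its dKO and dKO-LAP* libraries and at most 2.75 in any library of clone C2.

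Stranded mRNA libraries, prepared from total RNA, were sequenced in 5 groups of 3, made from 2 clones that the table names C1 and C2. WTFL cells (genotype wild-type in the labels) carried floxed Cebpa and Cebpb alleles and had been transformed with retroviral MLL-ENL. The dKO cells, Cebpa KO and Cebpb KO, had lost both genes after treatment with the membrane-permeable recombinase TAT-Cre and carried a vector for GFP. The dKO-LAP* cells of C1 carried GFP and rat C/EBPβ LAP*, its full-length activating form, on the same double-knockout background. All lines were grown as suspension cultures with murine IL-3. The labels list no exogenous gene for WTFL cells, so that dKO and WTFL cells also differed by the GFP vector, the recombinase treatment and the isolation of a subclone, and these cannot be told apart from the loss of both genes. Each line came from a single clone, transduced with the GFP vectors in the case of dKO and dKO-LAP* cells, and its 3 libraries were separate RNA preparations of it, so the p-values below measure the spread between preparations of 1 line. All LAP* values rest on C1.

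Lysosomes are acidic organelles in which cathepsins, glycosidases and lipid hydrolases break down material delivered by endocytosis, phagocytosis and autophagy. The V-ATPase pumps the protons that keep them acidic, heavily glycosylated membrane proteins such as LAMP1 and LAMP2 line them, and transporters carry the products out. Many of their genes share the CLEAR element, an extended E-box with the core CACGTG to which TFEB, TFE3 and MITF bind, and the kinase mTORC1 holds these factors in the cytoplasm while nutrients are plentiful. In myeloid cells lysosomes are abundant in macrophages, and the granules of neutrophils, eosinophils and mast cells are related organelles.

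Promoter sequence of the members is shown first, because the CLEAR core and the C/EBP motif are the letters through which these 2 families of factors read DNA. RefSeq promoters of the GRCm38.p6 build, each 300 bases long with 250 before and 50 after the start site, were given for 41 of the 47 members (50 windows). The core CACGTG was found in 12 of these 41 genes (29.3%) and in 8.09% of all 27025 genes with such a window. The longer palindrome TCACGTGA, which contains that core, was found in 7 (17.1%) against 1.13%, and TTGCNNAA, a C/EBP motif, in 10 (24.4%) against 12.2%, with both strands searched for each motif. Matches are a description of these windows and not of binding. The first 6 stretches below hold CACGTG in capitals. They are from 4 members that were lower in dKO cells of both clones (Ctsa, Ctsd, Lamp1 and Atp6v1a) and from 2 that were called in neither (Glb1 and Mcoln1). The core begins 12 bases before the start site in Ctsa, 98 in Ctsd, 131 in Atp6v1a and 48 in Glb1, and the Lamp1 and Mcoln1 stretches hold 4 and 2 copies. Ctsa has 2 windows, and its stretch is from the one farther from the annotated gene start, while the nearer window holds no CACGTG. Ctsd holds a further core 245 bases before its start site.
Ctsa (chr2:164833673-164833772, plus strand): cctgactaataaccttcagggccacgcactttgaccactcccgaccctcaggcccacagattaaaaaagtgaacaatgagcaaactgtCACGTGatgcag
Ctsd (chr7:142387873-142387972, minus strand): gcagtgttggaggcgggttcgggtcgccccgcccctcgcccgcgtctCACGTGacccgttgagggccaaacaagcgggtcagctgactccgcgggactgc
Lamp1 (chr8:13159061-13159160, plus strand): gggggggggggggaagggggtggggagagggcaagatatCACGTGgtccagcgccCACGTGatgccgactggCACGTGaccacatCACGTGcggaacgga
Atp6v1a (chr16:44139338-44139437, minus strand): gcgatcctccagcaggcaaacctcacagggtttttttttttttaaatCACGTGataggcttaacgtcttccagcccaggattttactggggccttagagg
Glb1 (chr9:114400978-114401077, plus strand): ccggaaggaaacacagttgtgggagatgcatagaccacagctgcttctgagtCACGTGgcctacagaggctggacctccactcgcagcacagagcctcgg
Mcoln1 (chr8:3500419-3500518, plus strand): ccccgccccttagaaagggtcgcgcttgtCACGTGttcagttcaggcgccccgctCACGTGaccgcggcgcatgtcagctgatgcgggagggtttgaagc
The next 3 stretches hold TTGCNNAA, on either strand, in capitals. They are from Ctsl, Cd68 and Mitf, which were lower in dKO cells of both clones, and the motif begins 114, 43 and 129 bases before the start site.
Ctsl (chr13:64370581-64370680, minus strand): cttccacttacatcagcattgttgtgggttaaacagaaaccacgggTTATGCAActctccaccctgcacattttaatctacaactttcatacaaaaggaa
Cd68 (chr11:69666171-69666270, minus strand): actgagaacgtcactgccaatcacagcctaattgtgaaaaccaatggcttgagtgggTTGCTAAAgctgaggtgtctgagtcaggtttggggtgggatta
Mitf (chr6:97806883-97806982, plus strand): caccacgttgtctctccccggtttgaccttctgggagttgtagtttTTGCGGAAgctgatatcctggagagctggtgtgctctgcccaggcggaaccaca
Of the 19 members with a window that were lower in both clones, 6 held CACGTG and 5 held TTGCNNAA. Of the 7 called in neither clone, 2 held CACGTG and 1 held TTGCNNAA.

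Neither target gene had reads in dKO cells. Cebpa had 1101 ± 292 normalized reads (mean ± SD, n = 3) in WTFL cells of C1 and 1963 ± 307 in those of C2, Cebpb had 1454 ± 90.7 and 1466 ± 148, and all dKO libraries were listed at 0 for both. In dKO-LAP* cells the mouse gene Cebpb had 3106 ± 961, and how many of these reads came from the rat sequence was not tested. Cebpe, a related family member, was at 408 ± 55.8 and 505 ± 10.5 in WTFL cells of C1 and C2 and at 2107 ± 143 and 2166 ± 51.9 in their dKO cells, and at 1809 ± 257 in dKO-LAP* cells. Each library held between 9212237 and 13613500 reads on genes. The summed lymphoid markers had at most 2.68 and the summed fibroblast markers at most 8.39 normalized reads in a library, while the 7 myeloid progenitor markers summed to between 23216 and 44056 in every library. In dKO cells 5 of the 7 were higher and 1 lower in C1, where the summed levels overlapped (32833 to 44056 in WTFL and 32886 to 35190 in dKO libraries). In C2, 5 were higher and none lower, and the summed level was 23216 to 25986 in WTFL and 32005 to 36569 in dKO libraries, without overlap. The part of these markers in the results on lysosome genes was not tested.

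The members together took 1.39% to 1.44% of the reads on genes in the WTFL libraries of C1 and 0.934% to 0.963% in its dKO libraries. In C2 these shares were 0.921% to 0.949% and 0.790% to 0.810%, and in dKO-LAP* cells of C1 they were 0.880% to 0.926%. Thus WTFL libraries of C1 lay above all others, and the WTFL libraries of C2 lay within the range of the C1 dKO libraries or just below it. In bulk RNA, fewer cells of a type and less RNA per cell cannot be told apart. In percentage points the largest drop in C1 was that of the proteases, with 0.332% to 0.359% of gene reads in WTFL and 0.153% to 0.164% in dKO libraries, followed by the lipid-handling proteins with 0.303% to 0.343% and 0.137% to 0.151%. As a proportion of the WTFL share, the drop of the lipid-handling proteins was slightly the larger. Psap, the member of that role with the most reads in C1, fell there from a mean of 21913 to 5254 normalized reads. The share of the role without Psap was not computed. Glycosidases took 0.185% to 0.214% in WTFL and 0.194% to 0.214% in dKO libraries of C1, which overlap. Counted per kilobase of exon, the highest member in WTFL cells of C1 was Psap at 7986 normalized reads, followed by Ctsz at 6103 and Lamp1 at 5088. In dKO cells of C1 it was Laptm5 at 2804, followed by Lamp1 at 2674 and Ctsz at 2430.4, and Psap was at 1915. In both groups of C2, Ctsz was the highest member per kilobase.

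**Figure D1:**
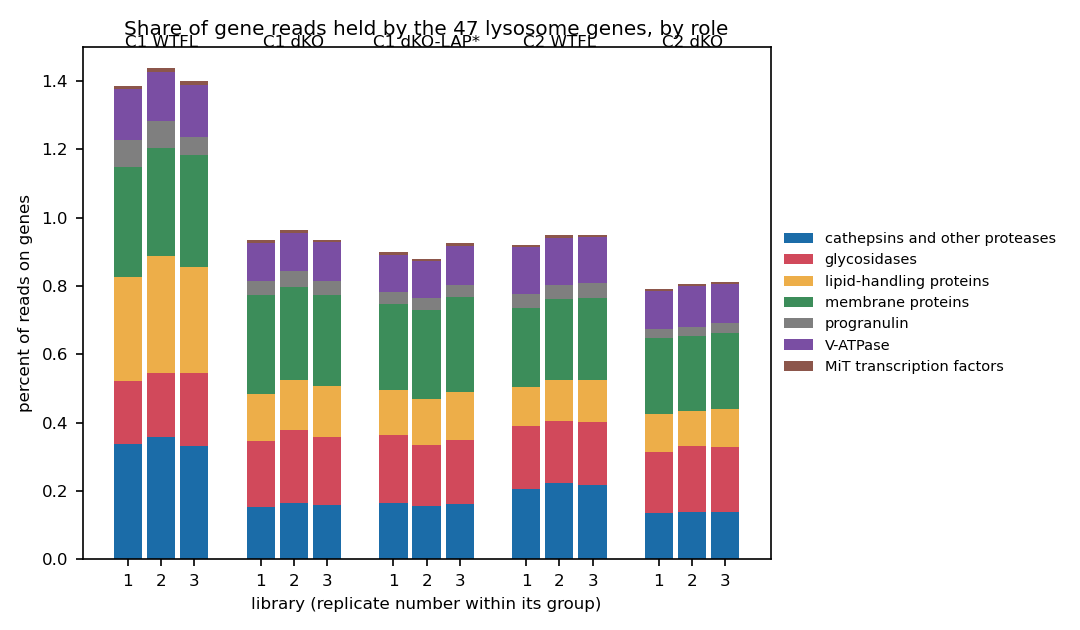
Percent of the reads on genes (vertical axis) that fell on the 47 lysosome genes in each of the 15 libraries (horizontal axis), stacked by role. WTFL libraries of C1 sit at 1.39% to 1.44%, its dKO libraries at 0.934% to 0.963% and the dKO libraries of C2 at 0.790% to 0.810%.

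The first question was how loss of Cebpa and Cebpb changed the set in each clone. In dKO cells of C1, 31 members were called lower and 4 higher (limma, adjusted p under 0.05), where 19.9% of all 12673 tested genes were called lower and 17.1% higher. The median log2 fold change of the members was -0.49, and that of all tested genes was -0.01. In C2, 22 members were lower and 8 higher, against 20.1% and 17.4% of all genes, with medians of -0.24 and -0.03. The 8 include Lgmn, which was at the floor in WTFL cells of C2 and is given below by its reads. Called members lower by at least 1 on the log2 scale numbered 10 in C1, where 7.66% of all genes passed this limit, and 0 in C2, where 7.22% did. Quantile normalization moved the calls in C1 to 27 lower and 6 higher, and the share of lower calls among all genes from 53.7% to 43.4%.

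Across the clones, 21 members were lower in both (8.36% of all genes were), 3 were higher in both (5.69%) and 2 went in opposite directions (4.10%). A further 8 were lower in C1 alone (9.51% of all genes), 1 was lower in C2 alone (9.63%), 1 was higher in C1 alone (9.31%), 3 were higher in C2 alone (9.78%) and 7 were called in neither clone (43.6%). The WTFL and dKO libraries did not overlap in either clone for 20 of the 21 lower members, all but Gaa, and for the 3 higher ones, where 7.89% and 5.44% of all genes met the same terms. A call in 1 clone alone does not show a difference between the clones, which was tested directly, and 20 members had such a difference. In 17 of these the log2 fold change of C2 lay above that of C1 (15.1% of all genes) and in 3 it lay below (14.3%), which became 14 and 5 after quantile normalization. Lgmn, at the floor in WTFL cells of C2, was counted among the members higher in C2 alone and among these 17.

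**Figure D2:**
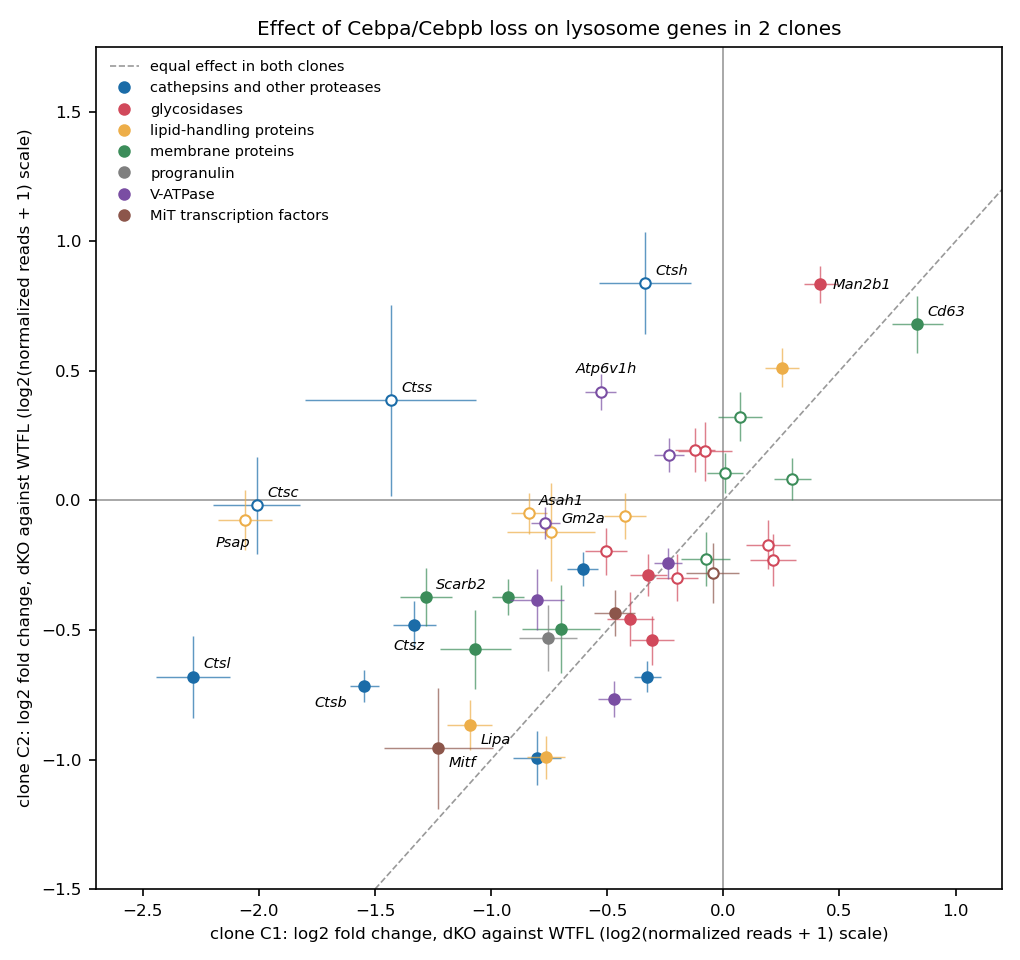
Log2 fold change of dKO against WTFL cells in C1 (horizontal axis) and C2 (vertical axis) for the tested members except Lgmn, which was at the floor in WTFL cells of C2. Bars are standard errors, filled points are members called alike in C1 and C2, and colours give roles. Psap and Ctsc lie near 0 in C2 and near -2 in C1.

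Cathepsins and other proteases had the lowest median log2 fold change of the roles in C1 (-1.07), where 8 of 10 tested members were lower and none was higher. In C2, 6 were lower and 2, Ctsh and Lgmn, were higher, with a median of -0.37. Lgmn was at the floor in WTFL cells of C2. The endopeptidase cathepsin B (Ctsb, mm10 chromosome 14 from 63122462 to 63145923, as all positions below) had 10038, 10593 and 9869 normalized reads in the WTFL libraries of C1 and 3584, 3460.3 and 3399.6 in its dKO libraries. The values in C2 were 3927, 4193 and 4429 in WTFL and 2523, 2577 and 2528 in dKO libraries. Expression in dKO cells was thus 34.2% of the WTFL mean in C1 and 60.8% in C2, with log2 fold changes of -1.55 (limma, standard error 0.06, adjusted p = 3.9e-11) and -0.72 (standard error 0.06, adjusted p = 2.9e-07). WTFL cells of C1 stood apart from the other 4 groups, and dKO cells of C2 were the lowest of all.

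Cathepsin L (Ctsl, chromosome 13 from 64359337 to 64370890), another cysteine endopeptidase, had 1161, 1729.9 and 1061 normalized reads in the WTFL libraries of C1 and 226, 279 and 289 in its dKO libraries. In C2 the values were 1343, 1708 and 1333 in WTFL and 972, 851 and 898 in dKO libraries. WTFL cells of both clones were at like levels here, and the fall was larger in C1 (-2.28, adjusted p = 1.9e-08) than in C2 (-0.68, adjusted p = 0.003), with a difference of 1.60 on the log2 scale (limma adjusted p = 6.6e-05). For Ctsd (chromosome 7 from 142375911 to 142388038), the aspartic protease cathepsin D, the normalized reads in C1 were 7267, 7876 and 8634 in WTFL and 4511, 4711 and 4380.1 in dKO libraries. Those in C2 were 6258, 8129 and 7849.5 in WTFL and 3824, 3443 and 3829 in dKO libraries. Ctsd fell by 0.80 on the log2 scale in C1 and by 0.99 in C2 (limma adjusted p = 1.6e-05 and 2.2e-06), and the test of a difference between the clones gave an adjusted p of 0.36.

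The carboxypeptidase cathepsin Z (Ctsz, chromosome 2 from 174427493 to 174439039) was at 8737, 8309.5 and 9337 normalized reads in the WTFL libraries of C1 and 3248, 3913 and 3345 in its dKO libraries. Its C2 libraries held 5559.9, 5371 and 5381 in WTFL and 3549, 4299 and 3871 in dKO. These are log2 fold changes of -1.33 and -0.48 (limma adjusted p = 2.2e-08 and 0.00073). Protective protein cathepsin A (Ctsa, chromosome 2 from 164832873 to 164841032), which holds NEU1 and beta-galactosidase in a complex, had 3617, 3807 and 3428 normalized reads in the WTFL libraries of C1 and 2392, 2557 and 2191 in its dKO libraries. Normalized reads in C2 were 3320.2, 3463 and 3584 in WTFL and 2791, 2853 and 2986 in dKO libraries, a smaller gap than in C1 (-0.61 in C1 and -0.26 in C2). Its clone difference (limma adjusted p = 0.013) was not called after quantile normalization (0.11, with 0.0045 to 0.11 over 8 alternatives). Tripeptidyl peptidase Tpp1 (chromosome 7 from 105744811 to 105752235) showed the reverse order, with 2487, 2517 and 2627 in WTFL and 1958, 2119 and 2009 in dKO libraries of C1 and 2505, 2529 and 2429.6 in WTFL and 1524, 1508 and 1626 in dKO libraries of C2. The log2 fold changes of Tpp1 were -0.33 and -0.68, and it was among the 3 members with the lower value in C2 (difference -0.35, limma adjusted p = 0.0044).

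In cathepsins C, S and H the clones diverged, while legumain was at the floor in WTFL cells of C2. Ctsc, the dipeptidyl peptidase that activates granule serine proteases, fell from 5934 ± 1959.8 to 1413 ± 98.7 normalized reads in C1 (log2 fold change -2.01, limma adjusted p = 5.9e-07). In C2 it was at 1377 ± 96.3 in WTFL and 1361 ± 137 in dKO cells (-0.02, adjusted p = 0.95), close to the dKO level of C1. Ctss, which trims the invariant chain of MHC class II, fell from 1232 ± 225 to 480.3 ± 216 in C1 (-1.43, limma adjusted p = 0.0061) and was at 37.1 ± 21.9 and 45.1 ± 11.9 in C2 (0.39, adjusted p = 0.44). The clone difference of Ctss was 1.82 on the log2 scale (limma adjusted p = 0.015), and edgeR gave 0.054 for it, with 0.0077 to 0.054 over 8 alternatives. The aminopeptidase Ctsh (chromosome 9 from 90054152 to 90076089) had 183, 239.9 and 231 normalized reads in the WTFL libraries of C1 and 211, 163 and 146 in its dKO libraries, which overlap. Its C2 libraries held 44.8, 59.8 and 68.7 in WTFL and 121, 84.6 and 105 in dKO libraries, a rise of 0.84 on the log2 scale (limma, standard error 0.20, adjusted p = 0.0032). Lgmn, an asparaginyl endopeptidase, had 91.0, 171 and 90.7 normalized reads in WTFL and 44.2, 73.4 and 95.3 in dKO libraries of C1, which overlap. Its WTFL libraries of C2 held at most 2 reads and its dKO libraries at most 5, so that no fold is given, and 4 of 8 alternatives called it higher (0.0015 to 0.21 over 8 alternatives).

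Among the glycosidases, which strip sugars from glycoproteins and glycolipids, 4 of 10 were lower in each clone and 1 was higher. Hexa, the alpha subunit of beta-hexosaminidase (chromosome 9 from 59539540 to 59565109), had 4258, 3843 and 4730 normalized reads in the WTFL libraries of C1 and 3249, 3602 and 3382 in its dKO libraries. For C2 they were 3808, 3911 and 4172 in WTFL and 3264, 3288 and 3189.9 in dKO libraries. Falls of 0.32 and 0.29 on the log2 scale were called (limma adjusted p = 0.0052 and 0.011), although quantile normalization ended the call in C1 (0.085, with 0.0013 to 0.085 over 8 alternatives) and the call in C2 was lost without its WTFL replicate 3 (0.052, with 0.0052 to 0.052 with each library left out). The sialidase Neu1 (chromosome 17 from 34931253 to 34935953) had 2378, 2524 and 2473 normalized reads in the WTFL libraries of C1 and 1888, 2068 and 2013 in its dKO libraries. Clone C2 gave 3258, 3838 and 3100.2 in WTFL and 2373, 2505 and 2123 in dKO libraries. Its log2 fold changes were -0.31 (limma adjusted p = 0.018) and -0.54 (adjusted p = 0.00029), and their difference did not pass the test (-0.23, 95% interval -0.52 to 0.05, adjusted p = 0.21). The C1 call of Neu1 was lost after quantile normalization (0.12, with 0.011 to 0.12 over 8 alternatives), without WTFL replicate 2 (0.053) and without dKO replicate 1 of C1 (0.065, with 0.0092 to 0.065 with each library left out). Gaa, the glucosidase that degrades lysosomal glycogen, had 1109, 1312 and 1396 normalized reads in the WTFL libraries of C1 and 900.4, 1126 and 872 in its dKO libraries. In C2 it had 2164, 2399 and 2214 in WTFL and 1608, 1624 and 1701 in dKO libraries. Gaa was lower by 0.40 in C1 and 0.46 in C2 (limma adjusted p = 0.0062 and 0.0024), its C1 libraries overlapped, and a fit of only those 2 groups gave 0.058 (0.0022 to 0.058 over 8 alternatives).

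Man2b1, the acid alpha-mannosidase (chromosome 8 from 85083270 to 85098282), went the other way. It had 5827, 6488 and 6275 normalized reads in the WTFL libraries of C1 and 7886, 8760.4 and 8181 in its dKO libraries. In C2 it had 4054, 3756 and 4264 in WTFL and 7017, 6956 and 7529.7 in dKO libraries. Man2b1 rose by 0.42 on the log2 scale in C1 (limma, standard error 0.07, adjusted p = 0.00021) and by 0.83 in C2 (standard error 0.07, adjusted p = 2.3e-07), and the WTFL libraries of C2 lay far below those of C1 while its dKO libraries lay just below those of C1. Fuca1, the alpha-fucosidase, was called lower in C1 (-0.51, adjusted p = 0.00044) and Gla, the alpha-galactosidase, in C2 (-0.30, adjusted p = 0.017), and the clone difference was called for neither (adjusted p = 0.09 and 0.63). Fuca1 was also called in C2 without its WTFL replicate 1 (0.026), and Gla was not called without WTFL replicate 1 (0.087) or dKO replicate 1 (0.072) of C2 (0.0097 to 0.087 with each library left out). Glb1, Gusb, Galc and Manba were called in neither clone, with log2 fold changes from -0.12 to 0.21 in C1 and from -0.23 to 0.19 in C2. Among the alternatives, quantile normalization called Glb1 (0.036 with 0.036 to 0.2 over 8 alternatives) and Galc (0.049 with 0.049 to 0.16 over 8 alternatives) higher in C1. With a library left out, Galc was called lower in C2 without its WTFL replicate 2 (0.014) and Manba higher without its dKO replicate 1 (0.045).

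Of the 7 lipid-handling proteins, 6 were lower and 1 higher in C1, and 2 were lower and 1 higher in C2. Acid lipase Lipa (chromosome 19 from 34492318 to 34527474), which frees cholesterol and fatty acids from lipoproteins, had 1988, 1667 and 2266 normalized reads in the WTFL libraries of C1 and 871, 903 and 984 in its dKO libraries. The values in C2 were 846, 792 and 769 in WTFL and 460.3, 439 and 418 in dKO libraries. Lipa fell to 46.6% of the WTFL mean in C1 and to 54.8% in C2 (log2 fold changes -1.09 and -0.87, limma adjusted p = 3.3e-07 and 4.5e-06). The cholesterol exporter Npc1 (chromosome 18 from 12189692 to 12236400) had 1079.8, 1149 and 1093 normalized reads in the WTFL libraries of C1 and 596, 652 and 711 in its dKO libraries. Normalized reads in C2 were 1149, 1220.4 and 1104 in WTFL and 602, 545 and 599 in dKO libraries. Its WTFL libraries of both clones lay between 1080 and 1220, and its dKO libraries between 545 and 711. The log2 fold changes of Npc1 were -0.76 and -0.99 (limma adjusted p = 2.7e-06 and 2.1e-07), and their difference did not pass the test (-0.23, 95% interval -0.48 to 0.02, adjusted p = 0.17).

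Psap (chromosome 10 from 60277627 to 60302597), the precursor of the saposins that present sphingolipids to their hydrolases, had 19515, 24621 and 21603 normalized reads in the WTFL libraries of C1 and 4504, 5406 and 5853 in its dKO libraries. In C2 the values were 3231, 3789 and 4017 in WTFL and 3419.9, 3438 and 3580.4 in dKO libraries. It fell to 24.0% of its WTFL mean in C1 (log2 fold change -2.06, standard error 0.12, limma adjusted p = 2.1e-09) and the groups of C2 overlapped (-0.07, adjusted p = 0.65), a clone difference of 1.99 (adjusted p = 4.3e-07). Asah1, the acid ceramidase, fell from 3350.4 ± 107 to 1877 ± 143 in C1 and was at 2695 ± 42.2 and 2613 ± 271 in C2. Its clone difference was 0.79 (limma adjusted p = 7.3e-05). Gm2a, the GM2 activator, and Npc2, which hands cholesterol to NPC1, were lower in C1 (-0.74 and -0.42, adjusted p = 0.0059 and 0.0015) and not called in C2 (-0.12 and -0.06). For Gm2a the clone difference did not pass (0.62, adjusted p = 0.097), but it did in DESeq2 (0.034, with 0.034 to 0.14 over 8 alternatives) and without WTFL replicate 3 of C1 (0.033) or dKO replicate 2 of C2 (0.0026, with 0.0026 to 0.24 with each library left out). For Npc2 it passed by little (0.36, limma adjusted p = 0.041) and was kept in 4 of 8 alternatives (0.025 to 0.17 over 8 alternatives) and in 7 of 15 fits with a library left out (0.0023 to 0.11 with each library left out).

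The thioesterase Ppt1 (chromosome 4 from 122836242 to 122859175), which removes palmitate from proteins, had 1481, 1417 and 1438 normalized reads in the WTFL libraries of C1 and 1849, 1684 and 1639 in its dKO libraries. Its C2 libraries held 1232, 1409 and 1433 in WTFL and 2056, 1790.5 and 1965 in dKO libraries. It was higher in dKO cells of both clones, by 0.25 (limma adjusted p = 0.014) and 0.51 (adjusted p = 5.4e-05) on the log2 scale, and without dKO replicate 1 of C1 the call in that clone was lost (0.066, with 0.0087 to 0.066 with each library left out).

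Of the 9 membrane proteins, 4 were lower and 2 higher in each clone. Lamp1 (chromosome 8 from 13159161 to 13175338), the most abundant of them per kilobase in WTFL cells, had 13909, 12926 and 13993 normalized reads in the WTFL libraries of C1 and 7466, 7081 and 6909 in its dKO libraries. For C2 they were 8434, 8602 and 9271 in WTFL and 6432, 6972 and 6913 in dKO libraries. The falls of Lamp1 were 0.93 and 0.37 on the log2 scale (limma adjusted p = 5.4e-08 and 0.00061), and its dKO libraries of the 2 clones overlapped although the WTFL libraries did not. Lamp2 (chromosome X from 38401357 to 38456454), whose product also lines the membrane and acts in chaperone-mediated autophagy, had 7179.7, 6720.3 and 5152 normalized reads in the WTFL libraries of C1 and 5077, 3180.3 and 3604 in its dKO libraries. Clone C2 gave 5452, 5479 and 5097 in WTFL and 4369, 3133 and 3958 in dKO libraries. Lamp2 varied more between libraries, with falls of 0.70 (limma adjusted p = 0.0041) and 0.50 (adjusted p = 0.03). The C2 call was lost without any one of its WTFL replicates 1 (0.074), 2 (0.08) and 3 (0.052) and of its dKO replicates 2 (0.14) and 3 (0.053), with 0.012 to 0.14 with each library left out.

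Macrosialin (Cd68, chromosome 11 from 69664213 to 69666153), a lysosomal glycoprotein rich in macrophages, had 674, 861 and 888 normalized reads in the WTFL libraries of C1 and 347, 381 and 421 in its dKO libraries. In C2 it had 455, 650.1 and 682 in WTFL and 402, 334 and 454 in dKO libraries, and WTFL replicate 1 lay nearly level with the highest dKO library. Cd68 fell by 1.07 and 0.57 on the log2 scale (limma adjusted p = 4.6e-05 and 0.0077). Scarb2 (chromosome 5 from 92441314 to 92506833), which carries glucocerebrosidase to the lysosome, had 2067, 1936 and 2755 normalized reads in the WTFL libraries of C1 and 877, 905 and 966 in its dKO libraries. The values in C2 were 1047, 930.0 and 1048 in WTFL and 809.7, 769 and 755 in dKO libraries. The fall was larger in C1 (-1.28, adjusted p = 2.9e-07) than in C2 (-0.37, adjusted p = 0.016), with a clone difference of 0.91 (limma adjusted p = 0.00048), and the C2 call was lost without WTFL replicate 1 (0.055) or 3 (0.058) or dKO replicate 3 (0.054), with 0.0021 to 0.058 with each library left out.

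Cd63 (chromosome 10 from 128900989 to 128912822), a tetraspanin of late endosomes and of granules in mast cells and basophils, had 3526, 3175 and 4645 normalized reads in the WTFL libraries of C1 and 6996, 6938 and 6091 in its dKO libraries. Normalized reads in C2 were 4444, 4154 and 4136 in WTFL and 6822, 6983 and 6588 in dKO libraries. It was the member with the largest rise in C1, 0.84 on the log2 scale (limma, standard error 0.11, adjusted p = 1.9e-05), and rose by 0.68 in C2 (adjusted p = 0.00015). The sorting protein Laptm4a was called higher in C1 (0.30, adjusted p = 0.0084) and Cln3 in C2 (0.32, adjusted p = 0.014). For Cln3 the call was lost with only the 2 groups in the fit (0.061, with 0.0088 to 0.061 over 8 alternatives) and without WTFL replicate 1 (0.077) or dKO replicate 2 (0.062) of C2, with 0.005 to 0.077 with each library left out. Laptm5, a lysosomal protein of blood cells, and the calcium channel gene Mcoln1 were called in neither clone (0.01 and -0.08 in C1, 0.11 and -0.23 in C2).

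Progranulin (Grn, chromosome 11 from 102430315 to 102437048), a precursor cut into granulins in the lysosome, had 9596, 9625 and 6262 normalized reads in the WTFL libraries of C1 and 4928, 5299 and 4603 in its dKO libraries. Its C2 libraries held 4706, 5029.6 and 5123 in WTFL and 3339, 3253 and 3700.5 in dKO libraries. Grn fell by 0.76 in C1 and 0.53 in C2 on the log2 scale (limma adjusted p = 0.0002 and 0.0036), and its WTFL replicate 3 lay below the other WTFL replicates of C1.

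**Figure D3:**
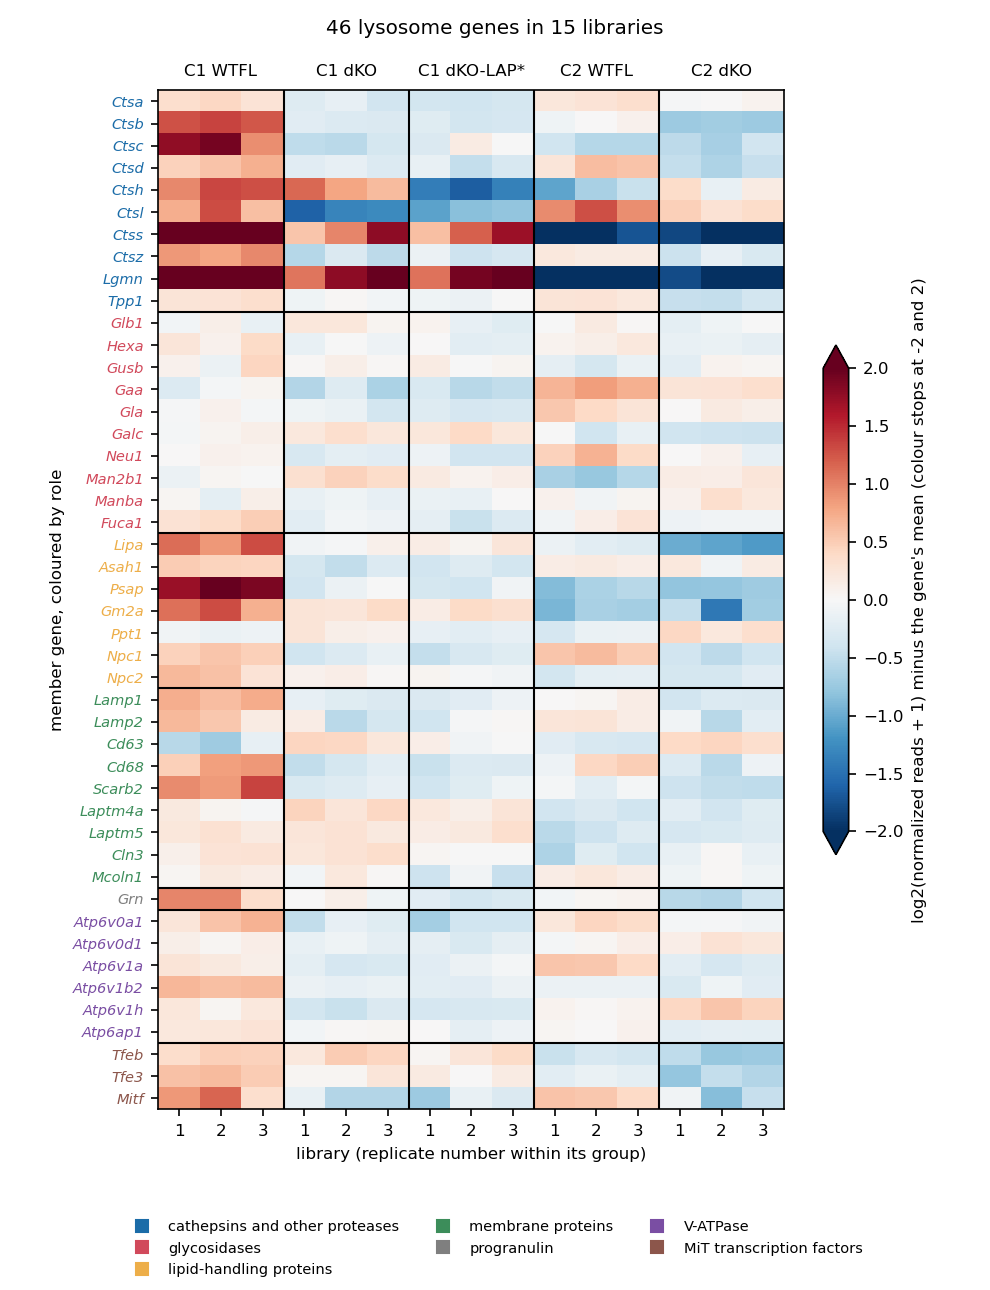
Log2(normalized reads + 1) of each tested member minus its mean over the 15 libraries (colour), with members in rows by role and libraries in columns by group. WTFL libraries of C1 are red in most rows, and Ctss and Lgmn of C2 WTFL libraries lie at the lower end of the colour range.

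All 6 V-ATPase genes were lower in dKO cells of C1, while 3 were lower and 2 higher in C2. Atp6v1a (chromosome 16 from 44085402 to 44139705), the catalytic subunit, had 4579, 4367 and 4145 normalized reads in the WTFL libraries of C1 and 3329.6, 3019.8 and 3102 in its dKO libraries. For C2 they were 5608, 5580 and 5042 in WTFL and 3301, 3037 and 3191 in dKO libraries. Atp6v1a fell by 0.47 and 0.77 on the log2 scale (limma adjusted p = 7.1e-05 and 5.7e-07), and the clone difference of -0.30 (adjusted p = 0.035) was called in 7 of 15 fits with a library left out (0.022 to 0.084 with each library left out). The membrane subunit Atp6v0a1 (chromosome 11 from 101009452 to 101063719) had 1278, 1606 and 1759 normalized reads in the WTFL libraries of C1 and 767, 967 and 916 in its dKO libraries. Clone C2 gave 1264, 1458 and 1392 in WTFL and 1056, 1062 and 1033 in dKO libraries. Its falls were 0.80 and 0.38 (limma adjusted p = 5.3e-05 and 0.017), the latter not called without WTFL replicate 2 (0.07) or 3 (0.051) or dKO replicate 3 (0.051) of C2, with 0.007 to 0.07 with each library left out. The accessory gene Atp6ap1 (chromosome X from 74297097 to 74304721) had 3453, 3489 and 3604 normalized reads in the WTFL libraries of C1 and 2856, 3031 and 3049 in its dKO libraries. In C2 it had 3052, 2999 and 3172 in WTFL and 2569, 2634 and 2590.4 in dKO libraries. Small falls of equal size were called in both clones (-0.24 and -0.24, limma adjusted p = 0.0051 and 0.0046), and quantile normalization ended that in C1 (0.16, with 0.00095 to 0.16 over 8 alternatives).

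Atp6v1h and Atp6v0d1 were the members called in opposite directions. Atp6v1h (chromosome 1 from 5070018 to 5162529), a regulatory subunit that couples ATP use to pumping, had 1671, 1468 and 1662 normalized reads in the WTFL libraries of C1 and 1109.9, 1048 and 1167 in its dKO libraries. The values in C2 were 1499.8, 1455 and 1502 in WTFL and 1897, 2111 and 1953 in dKO libraries. It fell by 0.53 in C1 (limma, standard error 0.07, adjusted p = 1.5e-05) and rose by 0.42 in C2 (standard error 0.07, adjusted p = 0.00017), with no overlap in either clone and a clone difference of 0.95 (adjusted p = 3.5e-06). Atp6v0d1 (chromosome 8 from 105524465 to 105566047), a subunit of the membrane part, had 2589, 2449.6 and 2603 normalized reads in the WTFL libraries of C1 and 2143, 2251 and 2106 in its dKO libraries. Normalized reads in C2 were 2311, 2461 and 2604 in WTFL and 2626, 2915 and 2789 in dKO libraries. Here the changes were small, -0.23 (limma adjusted p = 0.011) and 0.18 (adjusted p = 0.047). Quantile normalization ended the call in C1 (0.15, with 0.0072 to 0.15 over 8 alternatives), and the rise in C2 was called in 4 of 8 alternatives (0.026 to 0.094 over 8 alternatives) and in 7 of 15 fits with a library left out (0.032 to 0.18 with each library left out). The difference between the clones was 0.41 (limma adjusted p = 0.0035). Atp6v1b2, the other part of the catalytic head, was lower in C1 alone (-0.77, adjusted p = 1.2e-07), with a clone difference of 0.68 (adjusted p = 3.6e-05).

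Of the MiT factors, which drive lysosomal genes, Tfe3 and Mitf were lower in dKO cells of both clones. Tfe3 (chromosome X from 7762560 to 7775202) had 749, 775 and 710.2 normalized reads in the WTFL libraries of C1 and 514, 515 and 588 in its dKO libraries. Its C2 libraries held 433, 455 and 434 in WTFL and 293, 357 and 331 in dKO libraries. The fall was of like size in both, -0.47 and -0.43 on the log2 scale (limma, standard error 0.09, adjusted p = 0.00062 and 0.0012). Mitf (chromosome 6 from 97807052 to 98021349) had 177, 219 and 122 normalized reads in the WTFL libraries of C1 and 87.2, 64.0 and 64.4 in its dKO libraries. For C2 they were 143, 140.5 and 127 in WTFL and 92.1, 53.5 and 69.7 in dKO libraries. Mitf fell by 1.23 and 0.96 (limma, standard error 0.23, adjusted p = 0.00065 and 0.0044), and per kilobase it was among the lowest members in every group. Tfeb (chromosome 17 from 47737030 to 47792419) had 285, 310.3 and 308 normalized reads in the WTFL libraries of C1 and 258, 318 and 301 in its dKO libraries, which overlap. Clone C2 gave 164, 178 and 172 in WTFL and 157, 132 and 135 in dKO libraries, which do not overlap. No call was made for Tfeb (-0.05 and -0.28, limma adjusted p = 0.79 and 0.069), except in C2 without dKO replicate 1 (0.039, with 0.039 to 0.19 with each library left out).

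**Figure D4:**
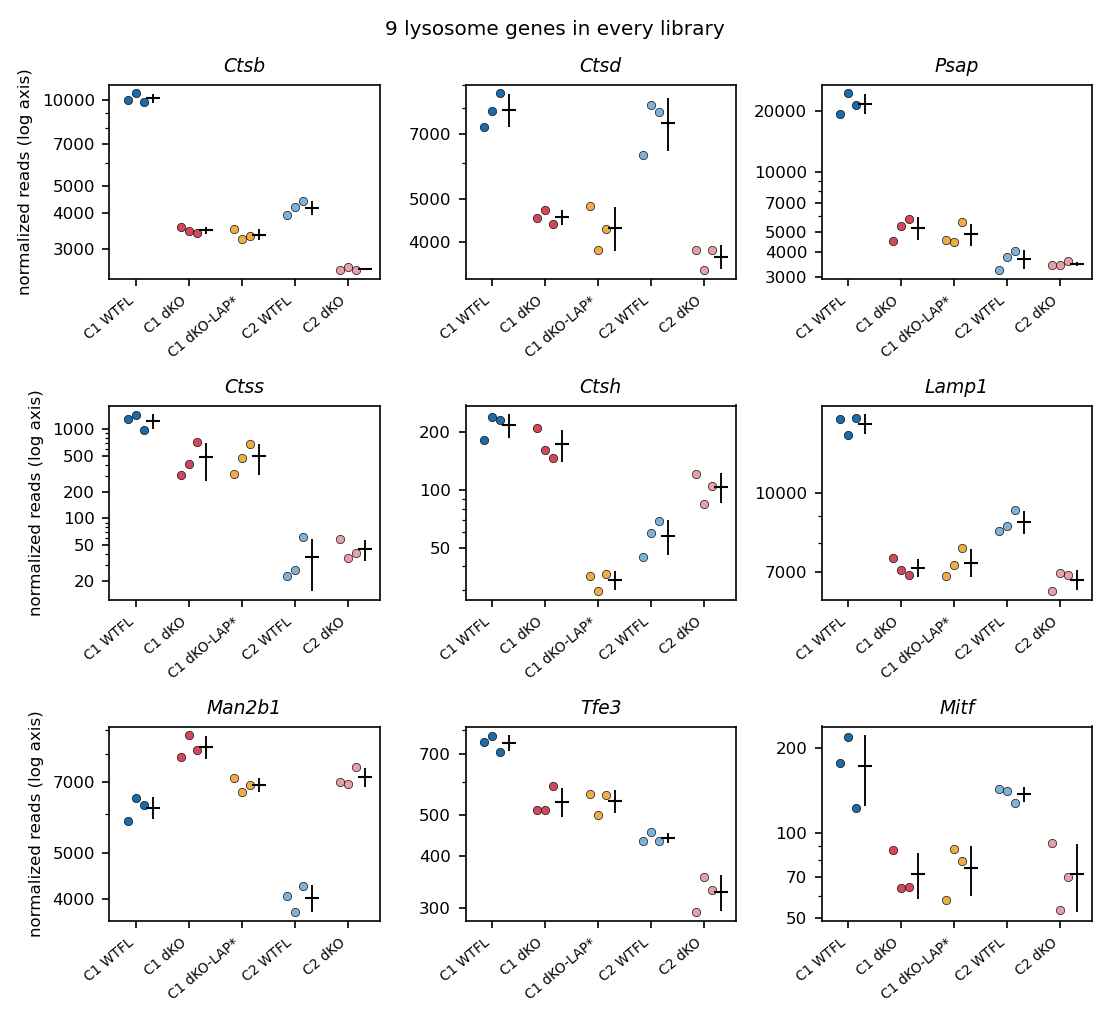
Normalized reads (vertical log axis) of 9 members in each library of the 5 groups (horizontal axis), with points for libraries and bars for mean ± SD of 3. WTFL libraries of C1 lie above its dKO libraries in all panels but Ctsh, where they overlap, and Man2b1, where they lie below.

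The WTFL cells of the clones were themselves far apart. Between WTFL cells of C2 and C1, 25 members were lower in C2 (21.3% of all genes) and 4 were higher (19.7%), with a median of -0.30 against -0.01 for all genes. Beside Lgmn, given below, the largest gaps were in Ctss (-5.14), Psap (-2.57), Ctsc (-2.05), Ctsh (-1.91) and Gm2a (-1.79), with adjusted p from 9.1e-11 to 1.5e-06. Psap had 16.8% of its C1 level in WTFL cells of C2, and Ctss 3.01%. Lgmn had 118 ± 46.5 normalized reads in WTFL cells of C1 and was at the floor in those of C2. The 4 higher members were Gaa (0.83), Neu1 (0.46), Gla (0.39) and Atp6v1a (0.31). This comparison and that of dKO with WTFL cells in each clone share the WTFL libraries, so they are not independent of each other.

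Macrophage markers were also lower in dKO cells of C1. Of 12 such markers, 9 were tested, and all 9 were lower in dKO cells of C1 (median log2 fold change -2.67), while 5 were lower and 2 higher in C2 (median -1.78). Their summed level was 12600 to 17771 normalized reads in the WTFL libraries of C1, 3812 to 5188 in its dKO, 3718 to 4998 in its dKO-LAP*, 1011 to 2181 in the WTFL and 1302 to 2127 in the dKO libraries of C2, where WTFL and dKO overlap. The defining complement genes C1qa, C1qb and C1qc did not reach the limit for the test and had at most 19.8 normalized reads in any library. Between WTFL cells of C2 and C1, 8 of the 9 were lower in C2 (median -3.97). Markers of granulocytes went the other way in C1, where 9 of 10 neutrophil granule genes, 6 of 6 eosinophil genes and 5 of 5 tested mast cell and basophil genes were higher in dKO cells. The summed neutrophil granule genes lay at 110170 to 118350 normalized reads in WTFL and 270340 to 281790 in dKO libraries of C1, and the summed eosinophil genes lay at 135 to 236 and 8580 to 16479. In C2, 4 neutrophil granule genes were higher and 2 lower, 4 eosinophil genes were higher and 1 lower, and 3 mast cell and basophil genes were higher and 1 lower. The 5 erythroid and megakaryocyte markers, of which 2 were tested, summed to 19.4 to 44.2 normalized reads in WTFL, 169 to 274 in dKO and 39.6 to 59.9 in dKO-LAP* libraries of C1, and to 17.9 to 35.7 in WTFL and 116 to 194 in dKO libraries of C2. Of the 2 tested, 1 was higher and 1 lower in dKO cells of C1, and 1 was higher and none lower in those of C2. The part of all these cell types or states in the changes of the lysosome genes was not tested.

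Re-expression of LAP* asked which members return toward WTFL levels. No member was called higher in dKO-LAP* than in dKO cells of C1 and 3 were lower (1.43% of all genes were higher and 3.03% lower), with a median of -0.04 against 0.00 for all genes. At an unadjusted p under 0.05 the counts were 3 higher and 9 lower, where 7.72% and 10.2% of all genes passed, and edgeR and DESeq2 called 0 higher as well. The comparison with dKO cells shares its dKO libraries, and that with WTFL cells its WTFL libraries, with the dKO effect in C1. In all, 34 members were lower (18.3% of all genes) and 1 was higher (14.2%) in dKO-LAP* than in WTFL cells, where the lower share of all calls was 56.4%, and 43.1% after quantile normalization. For Ctsb, the 95% interval of the LAP* effect ran from -0.18 to 0.08 on the log2 scale, and for Psap from -0.35 to 0.15, against falls of 1.55 and 2.06 in dKO cells. The intervals of Ctsl (0.17 to 0.84) and Ctsc (0.02 to 0.83) lay above 0, with adjusted p of 0.087 and 0.25. Ctsl was at 332, 393 and 403 normalized reads in dKO-LAP* libraries, all above its dKO and below its WTFL libraries. Without WTFL replicate 2 of C1, Ctsl was called higher (0.024, with 0.024 to 0.26 with each library left out), and without WTFL replicate 3, Ctsc was (0.029, with 0.029 to 0.52 with each library left out).

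Ctsh was the member with the largest LAP* effect. It had 35.5, 29.5 and 36.5 normalized reads in dKO-LAP* libraries, below every dKO and WTFL library of C1 given above. Its log2 fold change against dKO cells was -2.31 (limma, standard error 0.20, adjusted p = 5.7e-06) and against WTFL cells -2.65 (adjusted p = 4.9e-08). The call against dKO cells held in all 8 alternatives (2.7e-20 to 0.0056 over 8 alternatives) and without any 1 library (4.1e-06 to 7.2e-05 with each library left out). As Ctsh had not been called in dKO against WTFL cells of C1, this was a move away from the WTFL level. Man2b1 had 7136, 6684 and 6924 normalized reads and Ppt1 1378, 1341 and 1379.8 in dKO-LAP* libraries. Both had risen in dKO cells and came down with LAP*, by 0.26 (limma adjusted p = 0.049) and 0.33 (adjusted p = 0.017). The Man2b1 call held in 3 of 8 alternatives (0.0075 to 0.094 over 8 alternatives) and 3 of 15 fits with a library left out (0.046 to 0.2 with each library left out), and that of Ppt1 was lost without dKO replicate 1 (0.077) or dKO-LAP* replicate 2 (0.068) or 3 (0.058), with 0.011 to 0.077 with each library left out. Cd63 was at 5726, 4947 and 5184, below its dKO and above its WTFL libraries, with a LAP* effect of -0.34 (adjusted p = 0.1) that was called without WTFL replicate 3 of C1 (0.017, with 0.017 to 0.28 with each library left out). Cd63 remained higher than in WTFL cells (0.50, limma adjusted p = 0.0023).

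The MiT factors in dKO-LAP* libraries were at 541 ± 35.0 normalized reads for Tfe3, 74.9 ± 15.3 for Mitf and 262 ± 30.8 for Tfeb (mean ± SD, n = 3), each overlapping the range of its dKO libraries. Their LAP* effects were 0.01, 0.05 and -0.16 on the log2 scale (95% intervals -0.18 to 0.19, -0.45 to 0.55 and -0.40 to 0.09), and none was called (limma adjusted p = 0.99, 0.94 and 0.52). No macrophage marker of the 9 was called between dKO-LAP* and dKO cells, while 6 of 10 neutrophil granule genes and 5 of 6 eosinophil genes were lower with LAP*. Of the 5 tested mast cell and basophil genes, 1 was lower and none was higher. Their list summed to 2893 to 3302 normalized reads in dKO and 1094 to 1309.5 in dKO-LAP* libraries of C1. Whether these moved together with Ctsh, Man2b1 and Ppt1 in the same cells was not tested.

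**Figure D5:**
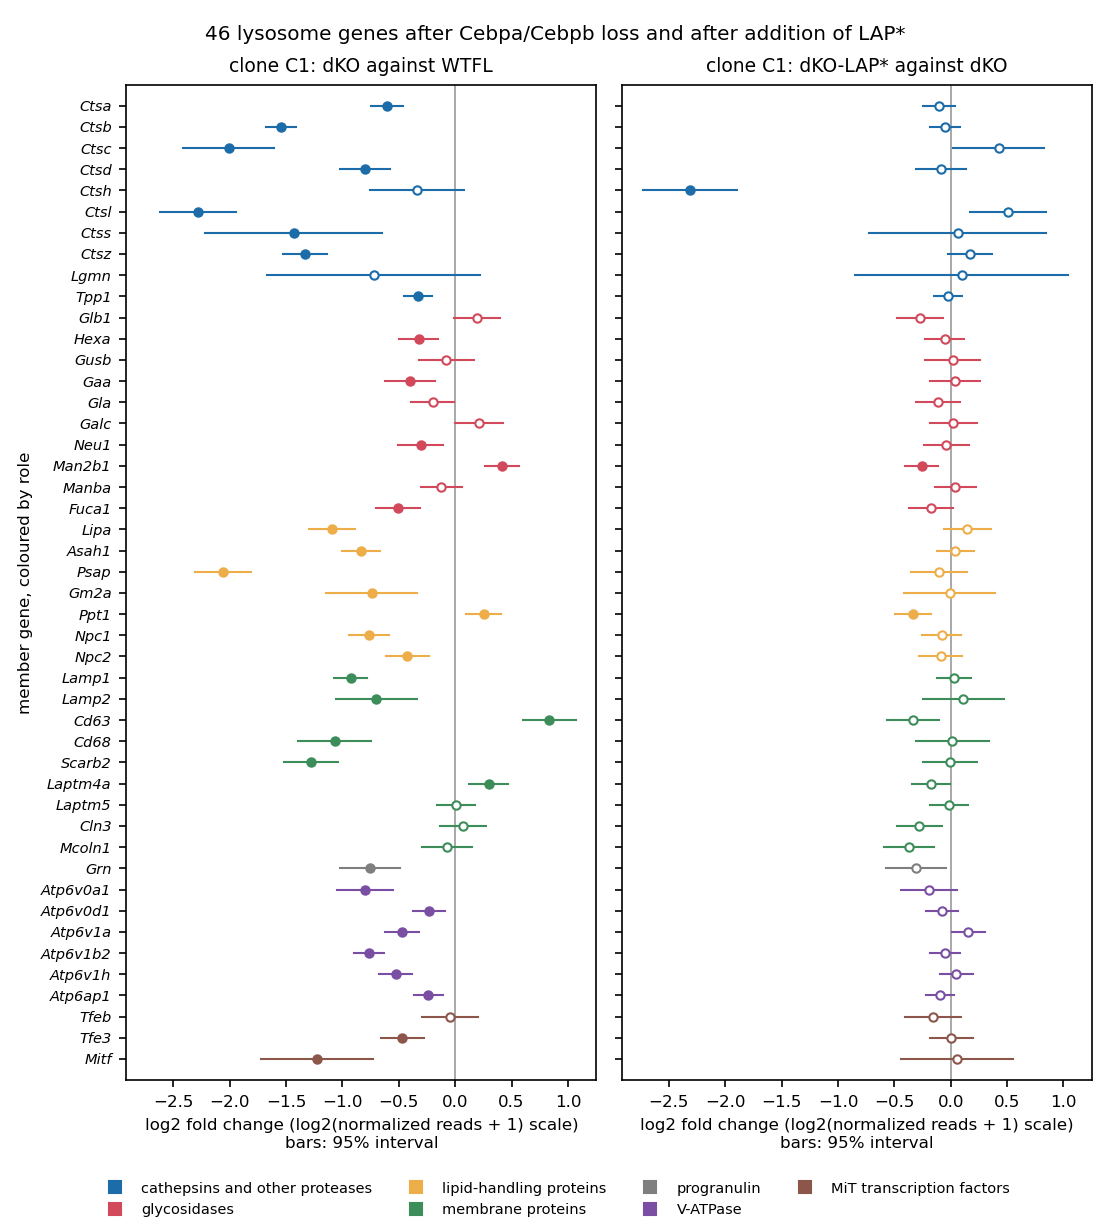
Log2 fold change with its 95% interval (horizontal axis) of the 46 tested members (vertical axis, coloured by role) in C1, for dKO against WTFL cells (left) and dKO-LAP* against dKO cells (right). Filled points are called members, 35 on the left and 3 on the right.

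Other genes of the pathway were counted on lists drawn up by function, 115 genes with a row of which 111 were tested. Of these, dKO cells of C1 had 42 lower and 19 higher, and those of C2 had 53 lower and 9 higher, with medians of -0.10 and -0.22. These were 37.8% lower and 17.1% higher in C1, beside 19.9% and 17.1% of all genes, and 47.7% and 8.11% in C2, beside 20.1% and 17.4%. Among 27 further hydrolases, 16 were lower in each clone, and 4 and 0 were higher. The carboxypeptidase gene Scpep1 fell from 467 ± 119 to 165 ± 40.7 normalized reads in C1 and from 461 ± 106 to 216 ± 15.4 in C2. Ctsf, a further cathepsin, was at 33.4 ± 14.7 normalized reads in WTFL cells of C2, at 2.55 ± 1.59 in those of C1, and at or under the floor of 3 reads in all dKO libraries of both clones. Both C1 groups of Ctsf thus lay near or under the floor, and its place among the lower hydrolases of C1 rests on few reads. Among 19 further membrane proteins and transporters, 8 were lower and 2 higher in C1, and 9 and 2 in C2. Slc11a1, the NRAMP1 metal transporter of phagocyte lysosomes, fell from 219.7 ± 15.6 to 29.9 ± 17.8 in C1 and from 30.3 ± 3.77 to 6.76 ± 2.75 in C2. Laptm4b fell by 2.70 and 3.08 on the log2 scale (limma adjusted p = 2.6e-05 and 8.1e-06), whereas its paralog Laptm4a was higher in C1 and not called in C2.

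Of 12 further V-ATPase genes, 6 were lower and 2 higher in C1, and 9 were lower and none higher in C2. These were 50% and 16.7% in C1, beside 19.9% and 17.1% of all genes, and 75% and 0% in C2, beside 20.1% and 17.4%. Atp6v1g1 fell by 0.68 and 0.75 on the log2 scale (limma adjusted p = 0.0011 and 0.00048). Atp6v0d2, the isoform of Atp6v0d1 known from osteoclasts and macrophages, had 17.5 ± 5.21 and 6.66 ± 6.49 normalized reads in WTFL cells of C1 and C2 and was at the floor in all dKO libraries. In the list for mTORC1 and the MiT factors, 4 of 15 were lower and 2 higher in C1, and 7 lower and 2 higher in C2. The shares were 26.7% and 13.3% in C1 and 46.7% and 13.3% in C2, beside the same shares of all genes as above. Tfec, the fourth MiT gene, fell from 4122 ± 145 to 1696 ± 124 in C1 and from 4523 ± 376 to 1439 ± 180.2 in C2 (log2 fold changes -1.28 and -1.66, limma adjusted p = 5.9e-08 and 3.7e-09). Rragc, one of the GTPases that bring mTORC1 to lysosomes, fell by 0.40 and 0.29.

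In the list of 16 genes for sorting to lysosomes, 3 were lower and 3 higher in C1, and 4 lower and 1 higher in C2. In C1 these shares (18.8% each way) were at the level of all genes. In C2 they were 25% lower, beside 20.1% of all genes, and 6.25% higher, beside 17.4%. M6pr, a receptor for the mannose 6-phosphate tag of lysosomal enzymes, fell by 0.43 and 0.42 (limma adjusted p = 3.8e-05 and 5.6e-05). Of 15 autophagy genes, 4 were lower and 3 higher in C1, and 5 lower and 2 higher in C2. These were 26.7% and 20.0% in C1, beside 19.9% and 17.1% of all genes, and 33.3% and 13.3% in C2, beside 20.1% and 17.4%. Optn (-1.12 and -1.24) and Sqstm1 (-0.53 and -0.47), both cargo receptors, were lower in both clones. Inhibitors of cathepsins differed in direction. Of 7 tested, 3 were higher and 1 lower in C1, and 2 higher and 3 lower in C2. Cst7, cystatin F, rose from 945 ± 34.1 to 2466 ± 191 in C1 and from 748 ± 227 to 1453 ± 165 in C2. Stfa1 rose by 1.42 and 0.90 on the log2 scale, but stefin A genes are near-identical copies, so its reads are uncertain. With LAP*, 1 of the 111 genes was higher (0.901%, beside 1.43% of all genes) and 7 were lower (6.31%, beside 3.03%) than in dKO cells.

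Some member values carry an uncertainty of counting. In GENCODE vM21, Ctsd, Ctsl and Glb1 share exonic sequence with another gene on the same strand, and 12 members, among them Ctsa, Ctsb, Ctsz, Lamp1 and Atp6v1h, do so with a gene on the opposite strand. The libraries were made with a stranded kit, but the strand setting of the counting is not given in the sources used here, so reads of overlapping genes could have been split or dropped.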

How the data were processed

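The authors sequenced stranded mRNA libraries, made from total RNA, of MLL-ENL transformed fetal liver cells in 5 groups of 3, and groups were taken from the sample labels. Per the submitters' processing notes, reads were aligned to mm10 with STAR 2.5.3a, counted with HTSeq 0.10.0 and scaled with DESeq2 1.26.0. The deposited values are normalized read counts per gene, a signal that the authors had divided by size factors. The annotation and strand setting of the counting are not given in the sources used here. Dividing the values by their smallest step gave whole reads (within 0.1) for 100% of values up to 500 reads in every library, and these reads served the count tests. They summed to 9212237 to 13613500 on genes per library, and rows naming no gene (22.4% to 26.2% of reads) were left out. Fewer reads limit the low members, with a floor of 3 reads. Another 3 columns matched no sample here and were not used.

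A gene was tested where 3 or more libraries held 10 or more normalized reads (12673 genes), with limma 3.58.1 in R 4.3.3 on log2(normalized reads + 1), with 1 mean per group, a trended prior and Benjamini-Hochberg adjustment over all of them, and called at an adjusted p under 0.05. Fold changes on this scale understate those of low genes. In 8 alternative fits the choices were a pseudocount of 0.1 or of 5, all genes without the filter, quantile normalization, only the groups compared, a replicate block, and edgeR 4.0.16 and DESeq2 1.42.0 on the recovered reads. Each library was also left out in turn, and calls were also counted with a fold limit of 1 on the log2 scale in either direction. The fits were tested on simulated data. Values in every library were given for members called in the same direction, or in opposite directions, in both clones, for Ctsh and the MiT factors, and for Psap and some others that were chosen after their values were seen. Other pathway genes were named by the largest change among those called alike in both clones. The members and lists were chosen with earlier results of these data known. Gene positions are from GENCODE vM21 (mm10) and promoters from RefSeq (GRCm38.p6). Tables and plots were made with Python 3.11.15, pandas 2.3.3, numpy 2.4.6 and matplotlib 3.10.9.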

Additional observations from a re-analysis of the deposited data

Results flagged for a closer look

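The change between dKO and WTFL cells differed between the clones for 20 members by the interaction term of the limma fit, given here as the log2 fold change of C2 minus that of C1. Among the proteases the difference was 0.34 for Ctsa, 0.83 for Ctsb, 1.99 for Ctsc, 1.18 for Ctsh, 1.60 for Ctsl, 1.82 for Ctss, 0.85 for Ctsz and -0.35 for Tpp1. For Lgmn the fitted difference was 2.09, which depends on the pseudocount because WTFL libraries of C2 were at the floor. It was -0.44 for Galc and 0.42 for Man2b1 among the glycosidases, and 0.79 for Asah1, 1.99 for Psap and 0.36 for Npc2 among the lipid-handling proteins. Of the membrane proteins it was 0.56 for Lamp1 and 0.91 for Scarb2, and of the V-ATPase genes 0.41 for Atp6v0d1, -0.30 for Atp6v1a, 0.68 for Atp6v1b2 and 0.95 for Atp6v1h. Groups of 3 libraries were not tested for single libraries that stand apart.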

How the results depend on the processing

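Depth limits the low members (Ctsk, and Lgmn in C2), and each line came from a single clone. With a log2 fold change of at least 1 required as well, the counts of members called lower and higher were 10 and 0 for dKO against WTFL in C1, 0 and 1 in C2, 0 and 6 for the difference of C2 minus C1, 1 and 0 for dKO-LAP* against dKO, 11 and 0 for dKO-LAP* against WTFL, and 9 and 0 for WTFL of C2 against C1, by construction of the limit. In the same order, 7.66% and 6.14%, 7.22% and 4.15%, 7.28% and 5.83%, 1.22% and 0.544%, 7.55% and 5.11%, and 8.66% and 7.76% of all genes were called lower and higher at this limit. In C2 the 1 member higher at this limit was Lgmn, which was at the floor in WTFL cells of C2. Lgmn was also among the 6 members of the clone difference. With only the groups compared in the fit, 5 members were higher in C2. Quantile normalization gave 5 members with a lower value in C2 than in C1 and 3 higher in dKO-LAP* than in WTFL cells. The cause was not tested.

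With each library left out, the counts lay at 30 to 31 lower and 3 to 4 higher for dKO in C1, and at 18 to 22 lower and 6 to 8 higher in C2. For C2 minus C1 they lay at 1 to 4 lower and 15 to 20 higher, with 1 lower without WTFL replicate 1 or dKO replicate 3 of C2. For dKO-LAP* against dKO they lay at 1 to 5 lower and 0 to 1 higher. Here 1 was lower without dKO replicate 1 or dKO-LAP* replicate 3, 5 were lower without WTFL replicate 3 of C1, and 1 was higher without its WTFL replicate 2 or 3. For dKO-LAP* against WTFL they lay at 32 to 34 lower and 1 to 2 higher (2 without WTFL replicate 2 of C2), and for WTFL of C2 against C1 at 21 to 26 lower and 4 to 5 higher. No direction of a called member reversed in these fits. Some members that were not called above were called in other fits, of which these are examples. For dKO against WTFL cells of C2, Mcoln1 was called with only the groups compared (adjusted p 0.034). For dKO-LAP* against dKO, Mcoln1 was called lower with the replicate block (0.03), by DESeq2 (0.042) and without dKO-LAP* replicate 2 (0.015), and Grn without WTFL replicate 3 of C1 (0.02). For C2 minus C1, the Man2b1 call was lost after quantile normalization (0.1), that of Lgmn with a pseudocount of 5 (0.051), by edgeR (0.12) and without 3 single libraries (0.052 to 0.054), and that of Galc without 5 single libraries (0.052 to 0.07). Ctsk was tested only without the filter.

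The replicate numbers were not found to pair the libraries, since same-numbered libraries of 2 groups deviated together with correlations from -0.174 to 0.297, and not every library matched its own number best. A fit with the replicate number as a block called 31 lower and 4 higher in C1, 22 and 7 in C2, 3 and 18 for C2 minus C1, 3 and 0 for dKO-LAP* against dKO, 34 and 1 for dKO-LAP* against WTFL, and 25 and 4 between the WTFL groups.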
